A study of Homo sapiens with 6 samples.

Results

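The SR proteins (genes named SRSF) and the heterogeneous nuclear ribonucleoproteins (hnRNPs, genes named HNRNP) were followed in T47D, an established human cell line of luminal breast cancer, after knockdown of ELF5. ELF5 is a transcription factor of the ETS family that acts in mammary luminal cells. Members were taken by symbol, pseudogenes and antisense RNAs left out, which gave 38 of the 26364 genes in the table, 12 SR and 26 hnRNP genes. The siELF5 group received an Ambion siRNA against ELF5 (AM16708) and the siNC group a control siRNA of the same supplier (4390846). Each group held 3 libraries, each group received 1 siRNA product, and RNA was taken 48 h after transfection, so target and siRNA product cannot be told apart. The labels do not tie the replicates to separate cultures, and the p-values therefore rest on library spread that may be technical. ELF5 itself was at 28.1% of its siNC mean in siELF5 (limma adjusted p = 3.26e-12), with 3638 to 3725 normalised read counts in siELF5 libraries and 12910 to 13225 in siNC libraries, so the target matched the labels.

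Libraries held 72433285 to 83680984 assigned reads in siELF5 and 66810743 to 83323288 in siNC. All 9 luminal markers looked at were expressed, with 4 higher (ESR1 among them) and 2 lower (KRT8 and KRT18), and their summed normalised count was 677548 to 700684 in siELF5 and 731642 to 778670 in siNC. The 15 markers of fibroblasts, endothelium, blood and basal cells summed to 4270 to 4760 in siELF5 and 4620 to 5851 in siNC, nearly all of it COL1A1 and ACTA2. The 10 markers among them with a mean under 15, which include PTPRC, PECAM1, CDH5 and KRT5, with PTPRC and CDH5 at 0 in siELF5, summed to 28.1 to 50.04 in siELF5 and 23.0 to 53.6 in siNC. The part of these markers in the results was not tested.

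SR proteins carry one or more RNA recognition motifs and a tail rich in arginine-serine dipeptides. They bind exonic enhancers, help to recruit U1 snRNP and U2AF to splice sites, and are phosphorylated by SRPK and CLK kinases. The hnRNPs coat nascent transcripts through RNA recognition, KH or RGG domains, often repress splice sites that SR proteins favour, and also act in mRNA export, stability and translation. Many genes of both families limit their own level by splicing in an exon that sends the transcript to nonsense-mediated decay, and a count per gene adds productive and unproductive transcripts together. In bulk RNA fewer cells and less RNA per cell cannot be told apart.

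Sequence elements are shown first because 2 kinds bear on an ELF5 siRNA experiment: a 7-base motif, CACTAAC or ACTAACA, which was picked by an earlier search of these data over 3' UTRs of genes that fell and so is not independent of them, and the ETS motif CCGGAAG in promoters. Among the tested members, 2 of 11 SR and 1 of 22 hnRNP genes carried the 3' UTR motif in their longest coding transcript of GENCODE 29, against 11.3% of the 13413 tested genes that could be searched on the transcript strand. The 4 sites in these 3 genes are given 5' to 3' on the transcript, with the motif in capitals. The first site of SRSF3 lies at chr6:36604138-36604162, the second at chr6:36605316-36605340, that of SRSF11 at chr1:70251393-70251417 (all plus strand) and that of HNRNPK at chr9:83969151-83969175 (minus strand), in GRCh38.
SRSF3 first site: aacaggtcaCACTAACcggtcttgt
SRSF3 second site: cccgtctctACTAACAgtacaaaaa
SRSF11: gttattatgCACTAACcttttttgg
HNRNPK: cgtgcaaaaACTAACAttgaaattt
Of these 3 genes SRSF3 and HNRNPK fell and SRSF11 did not pass the test, where 23.3% of all tested genes were lower. Because the motif was picked among genes that fell, this count is no support for it, and its part was not tested.

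GRCh38.p14 promoters from RefSeq (250 bases before to 50 after the start) matched 11 SR and 24 hnRNP genes. CCGGAAG, searched on both strands and so also as CTTCCGG, stood in 2 of the 11 SR promoters (18.2%) and 3 of the 24 hnRNP promoters (12.5%). It stood in 10.7% of all 27305 promoters and in 17.6% of the 11312 promoters of tested genes. Members that fell held it in SRSF5 (chr14:69767074-69767102, plus strand, 57 bases before the start) and HNRNPF (chr10:43408957-43408985, minus strand, 117 bases before the start). HNRNPLL (chr2:38602934-38602962, minus strand), which did not pass the test, is shown beside them because its paralog HNRNPL, which fell, had no match in this window.
SRSF5: caggggcgtccCCGGAAGtgacgtaggac
HNRNPF: gagcaggagggCTTCCGGcaaagccgcgt
HNRNPLL: aggagggaagaCCGGAAGccacggttgcg
The capitals mark the motif, and the sequences run 5' to 3' on the strand of the gene. The other matches were in the promoters of SRSF4 and HNRNPD, both of which missed the threshold. A match is a description of the letters and not evidence of binding.

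Most SR and hnRNP genes were abundant, and the changes that passed the test were small. Of 38 members, 33 had a mean of at least 10 normalised read counts (gene counts divided by the authors' size factor for each library) and were tested, 11 SR and 22 hnRNP genes. Of these, 1 rose (HNRNPM) and 11 fell (limma with Benjamini-Hochberg adjustment over 16032 genes, threshold 0.05). None of the 12, all with a mean of at least 1000, changed by 1.5-fold or more. Over all tested genes, less abundant ones included, 10.5% were called at that size, and the share at like abundance was not taken. Among all tested genes 47.1% were called, 23.8% higher and 23.3% lower in siELF5, and among those with a mean of at least 1000, 58.3% were called, 25.1% higher and 33.2% lower. By family, 2 of 11 SR genes fell and 0 rose, and 9 of 22 hnRNP genes fell and 1 rose. At an unadjusted p under 0.05 by limma, 0 SR genes were higher and 4 of 11 lower, beside 4335 higher and 4245 lower of all 16032 genes. With adjustment, edgeR and DESeq2 on recovered reads called 0 SR genes higher and 2 lower, where they called 47.3% and 40.2% of all genes. Groups that did not overlap were found with siELF5 lower for 3 SR and 11 hnRNP genes (28.0% of all genes) and with siELF5 higher for 1 SR and 2 hnRNP genes (27.9%). The difference between the families was not tested.

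**Figure D1:**
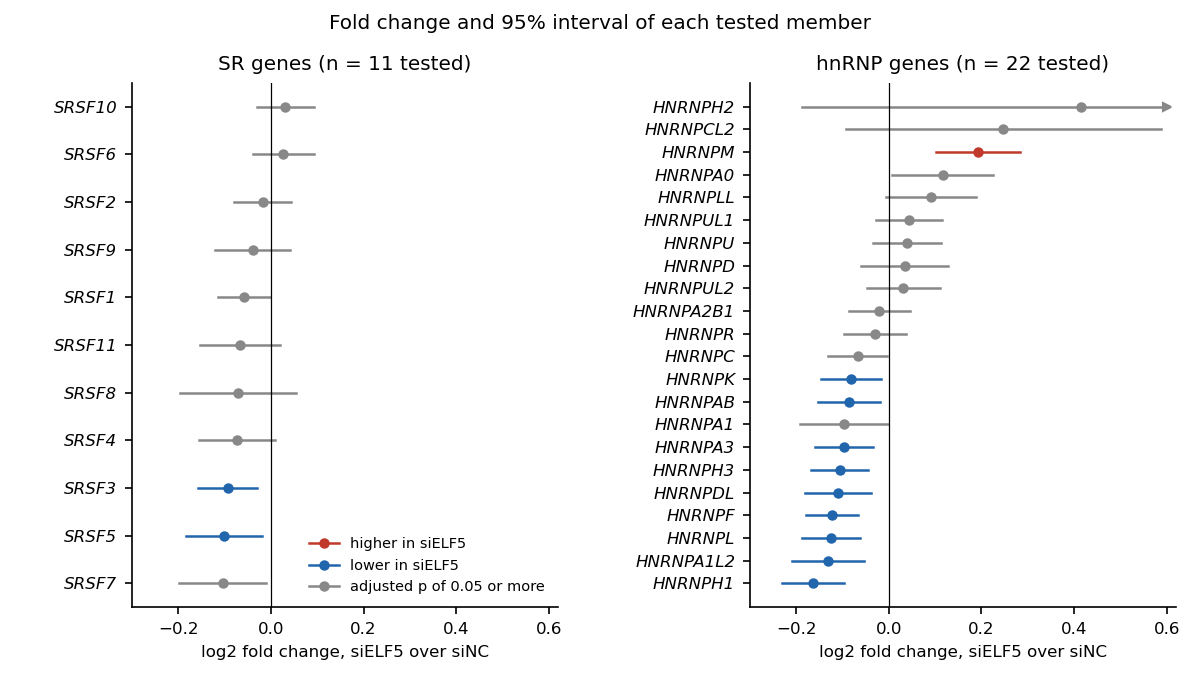
Log2 fold change of siELF5 over siNC on the log2(normalised read count + 1) scale (x axis) for the 11 tested SR genes (left) and 22 tested hnRNP genes (right). Points are limma estimates and lines their 95% intervals, red where the gene rose, blue where it fell and grey where the adjusted p was 0.05 or more; the interval of HNRNPH2 runs past the axis. HNRNPM at 0.19 is the single red point, and the abundant members lie within 0.2 of 0.

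The median log2 fold change was -0.07 over the tested SR genes and -0.05 over the tested hnRNP genes, against 0.0015 over all genes tested and -0.03 over the 9201 genes with a mean of at least 1000. Members with a mean of at least 1000 numbered 31, and all 31 lay within 0.2 of 0 on the log2 scale, as did 64.6% of these 9201 genes. The 95% intervals of the 31 members ran at most from -14.7% (HNRNPH1) to 21.6% (HNRNPM). Their standard error was 0.033 on the log2 scale in the median, against 0.044 over the 9201 genes. Members and other genes were not matched for abundance above that cut, so neither contrast is at like abundance.

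**Figure D2:**
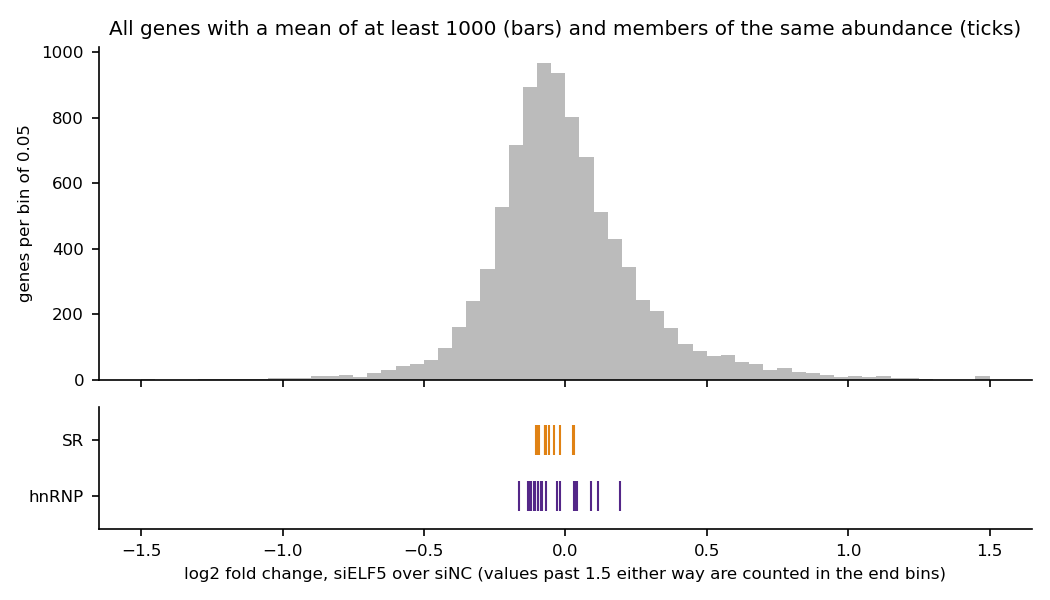
Number of genes per bin of 0.05 (y axis of the upper panel) against log2 fold change of siELF5 over siNC (x axis) for the 9201 genes with a mean of at least 1000, with values past 1.5 either way counted in the end bins. Ticks below mark the SR and hnRNP genes that also reach that mean, all of which lie within 0.2 of 0.

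Among SR genes only small decreases passed the test. SRSF3, the smallest SR protein, which also acts in mRNA export and 3' end choice, had 28604, 27398 and 27766 normalised read counts in the siELF5 libraries, against 30413, 29513 and 29463 in the siNC libraries. The groups did not overlap, and siELF5 was at 93.7% of siNC (log2 fold change -0.09, SE 0.029, limma adjusted p = 0.0188). Groups that do not overlap were found for 55.9% of all genes tested. SRSF5, an SR protein with a pair of RNA recognition motifs, had 10456, 11053 and 10849 counts in siELF5, against 12008, 11665 and 11036 in siNC. Its highest siELF5 library lay just above its lowest siNC library, and siELF5 was at 93.2% of siNC (log2 fold change -0.10, SE 0.038, adjusted p = 0.0439 by limma).

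Both SR calls depended on single libraries. The call for SRSF3 was lost without siELF5 replicate 2, siNC replicate 1 or siNC replicate 2, and that for SRSF5 without siELF5 replicate 1, siELF5 replicate 3, siNC replicate 1 or siNC replicate 2 (adjusted p up to 0.0725 and 0.17 over the 6 single-library omissions). The number of SR genes that fell was 0 without siNC replicate 1 or siNC replicate 2, 1 without siELF5 replicate 2 or siELF5 replicate 3, and 3 without siNC replicate 3 (0 higher by limma in each). In these fits 18.4% (without siNC replicate 2) to 22.5% (without siELF5 replicate 3) of all genes were lower. SRSF7, which pairs a zinc knuckle with its RNA recognition motif and resembles SRSF3, had the lowest value of the family, -0.10 (SE 0.043, limma adjusted p = 0.0659), with groups that overlapped, and passed the threshold without siELF5 replicate 1 (adjusted p = 0.0267) or siNC replicate 3 (adjusted p = 0.0126).

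SRSF1, the founding member of the family and an oncogene when overexpressed in breast epithelium, had 43570, 42938 and 43217 counts in siELF5, against 45216, 44841 and 44988 in siNC. The groups did not overlap, and siELF5 was at 96.1% of siNC, at -0.06 on the log2 scale (SE 0.026), and missed the threshold by limma (adjusted p = 0.0819). In GENCODE 29, 59.0% of its 50-base windows are also found in other genes, chiefly AC015813.2 on the same strand, so its count is uncertain. SRSF4, a long-tailed SR protein, had values that did not overlap and were lower in siELF5 (95.1% of siNC, limma adjusted p = 0.131). SRSF10, which represses splicing when dephosphorylated, had 17054, 17090 and 16846 counts in siELF5 against 16777, 16599 and 16523 in siNC, higher in every siELF5 library by a small step (102.2% of siNC, limma adjusted p = 0.39).

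For the other SR genes the groups overlapped. SRSF2, a marker protein of nuclear speckles, was at 98.8% of siNC with a 95% interval from -5.4% to 3.1%, and SRSF6 at 101.9% with an interval from -2.7% to 6.6%. SRSF9, a close relative of SRSF1, was at 97.3%, SRSF11 at 95.4% and SRSF8, a retrogene of SRSF2, at 95.1%. Exons of SRSF9 and SRSF2 overlap antisense genes, GATC over 41.2% and mainly MFSD11 over 33.8% of their length, and the library kit does not mark strand. SRSF12 had 16 reads in all 6 libraries together, a mean of 3.23 in siELF5 and 1.96 in siNC, and was not tested.

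Per kilobase of longest coding transcript, the mean normalised count of siNC ran from 439 for SRSF8 to 14442 for SRSF1 among tested SR genes. The lower end of that order was SRSF8, SRSF4 (2104), SRSF11 (3548), SRSF5 (4110) and SRSF10 (4770), and the upper end SRSF3 (7057), SRSF9 (7514), SRSF2 (7781) and SRSF1. In siELF5 the same measure ran from 418 for SRSF8 to 13873 for SRSF1. SRSF10, SRSF6 and SRSF7 lay close together, at 4874, 4991 and 4645 per kilobase in siELF5 and 4770, 4900 and 4993 in siNC, and their order was not the same in both groups.

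Genes of the hnRNP H and F group, whose proteins bind runs of G through quasi-RNA recognition motifs, fell in 3 of 4 cases, beside 23.3% lower over all genes tested and 33.2% lower over those with a mean of at least 1000. HNRNPH1 had 31441, 30764 and 32290 normalised read counts in siELF5, against 36108, 35365 and 34378 in siNC. Every siELF5 library lay below every siNC library, at 89.3% of siNC in the mean (log2 fold change -0.16, SE 0.031, limma adjusted p = 0.00075), the lowest ratio of any tested member. HNRNPF had 45058, 45013 and 44704 counts in siELF5, against 49369, 49105 and 48294 in siNC, the tightest siELF5 group of the hnRNP genes in relative terms. It fell by 0.12 on the log2 scale (SE 0.026, limma adjusted p = 0.00183).

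HNRNPH3, the short relative of HNRNPH1, had 16392, 16402 and 16058 counts in siELF5, against 17657, 17619 and 17299 in siNC. Here too the groups were apart, at 92.9% of siNC and -0.11 on the log2 scale (SE 0.029, limma adjusted p = 0.00845), although it no longer passed after correction for transcript GC content (adjusted p = 0.124). HNRNPH2, the X-linked copy of HNRNPH1, was counted at only 46.6 ± 8.33 in siELF5 and 35.2 ± 9.54 in siNC (SD, n = 3 each). Its interval, from -12.1% to 102.2%, was too wide to place it. In GENCODE 29 its exons overlap the readthrough gene RPL36A-HNRNPH2 over 16.3% of their length, so its count is uncertain.

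HNRNPL, a CA-repeat binding splicing regulator, had 23087, 23434 and 22322 counts in siELF5, against 24976, 25144 and 24914 in siNC. Its groups did not overlap (91.7% of siNC, log2 fold change -0.12, SE 0.029, limma adjusted p = 0.0035), and 22.7% of its exon length is shared with AC008982.1 on the same strand. With 32.3% of its 50-base windows also found in other genes, its count is uncertain. HNRNPLL, its paralog, known for switching CD45 exons in activated T cells, had 3105, 2958 and 2952 counts in siELF5, against 2880, 2709 and 2871 in siNC. These groups did not overlap either, with siELF5 on the upper side (106.5% of siNC, limma adjusted p = 0.113).

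Because the paralogs lay on opposite sides, their ratio was computed in each library, a choice made after the values were seen. HNRNPL over HNRNPLL was 7.43, 7.92 and 7.56 in siELF5, against 8.67, 9.28 and 8.68 in siNC. Since each gene's groups were already apart in opposite directions, the ratios had to separate too, and no test of them is given. The siELF5 ratios averaged below the siNC ratios (7.64 ± 0.253 in siELF5 and 8.88 ± 0.352 in siNC, SD, n = 3 each).

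HNRNPM was the member that rose. Its protein binds GU-rich sites and is known for switching CD44 exons in breast cells during the epithelial to mesenchymal transition. It had 25672, 25453 and 22776 counts in siELF5, against 21309, 21700 and 21563 in siNC. Every siELF5 library was above every siNC library, but siELF5 replicate 3 exceeded the highest siNC library by far less than the other two. The mean was 114.4% of siNC (log2 fold change 0.19, SE 0.041, limma adjusted p = 0.00205), and exons of AC136469.2 lie antisense to 13.4% of the transcript.

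**Figure D3:**
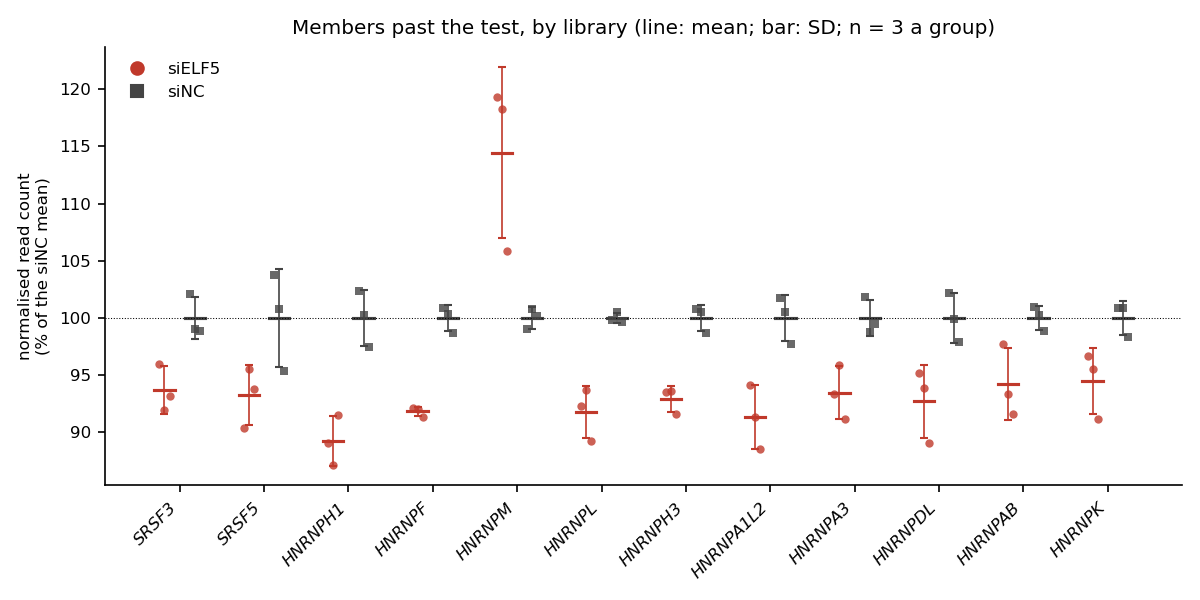
Normalised read count of each library as a percentage of the siNC mean (y axis; it does not start at 0) for the 12 members that passed the test (x axis), siELF5 as red circles and siNC as dark squares, with the mean as a line and the SD as a bar (n = 3 each). HNRNPM lies above its siNC libraries and the other 11 genes lie below theirs, with an overlap for SRSF5.

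Of the A/B-type genes, whose proteins bind UAG-containing motifs, HNRNPA3 and HNRNPA1L2 fell. HNRNPA3 had 39468, 40533 and 38560 counts in siELF5, against 43036, 41755 and 42040 in siNC (log2 fold change -0.10, SE 0.029, limma adjusted p = 0.0148). HNRNPA1L2, a retrocopy of HNRNPA1, had 7711, 7480 and 7250 counts in siELF5, against 8331, 8233 and 8006 in siNC (log2 fold change -0.13, SE 0.036, limma adjusted p = 0.00876). Neither gene's groups overlapped. The count of HNRNPA3 is uncertain, since 18.4% of its 50-base windows occur in other genes, mainly the pseudogene HNRNPA3P6. HNRNPA1, the best studied splicing repressor of the family, had 4837 ± 237 counts in siELF5 and 5168 ± 155 in siNC (SD, n = 3 each), fewer than its retrocopy. Of the 50-base windows of HNRNPA1L2, 58.5% occur in other genes and 47.6% in HNRNPA1, and 29.1% of those of HNRNPA1 occur in 57 other genes, so both values are uncertain.

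HNRNPA2B1, a reader of N6-methyladenosine and the most abundant member, had 155249 ± 4194 counts in siELF5 and 157446 ± 4331 in siNC (SD, n = 3 each), 98.6% of siNC, with an interval from -5.9% to 3.3%. With quantile scaling it was called in the other direction, at 0.11 (limma adjusted p = 0.000925). HNRNPA0, an intronless gene whose product binds AU-rich elements, had 12513, 13143 and 11208 counts in siELF5, against 10950, 11572 and 11426 in siNC. Its siELF5 replicate 3 lay inside the siNC range, and it missed the threshold with all libraries (log2 fold change 0.12, limma adjusted p = 0.0737) and passed without that library (0.18, adjusted p = 0.00209).

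HNRNPAB and HNRNPDL, relatives of the mRNA-decay factor gene HNRNPD, fell. HNRNPDL had 22238, 21921 and 20809 counts in siELF5, against 23871, 23336 and 22869 in siNC (log2 fold change -0.11, SE 0.033, limma adjusted p = 0.0153). Its adjusted p was 0.0585 on omission of siNC replicate 2. For HNRNPAB, at 94.2% of siNC (log2 fold change -0.09, SE 0.031, limma adjusted p = 0.0368), the call held on leaving out siELF5 replicate 1 and on none of the other 5 single-library omissions (adjusted p up to 0.117). Antisense exons, mainly of PHYKPL, lie over 10.9% of its exon length. Of its 50-base windows 9.96% occur in other genes, just under the 10% cut used below. HNRNPD itself was at 102.6% of siNC with groups that overlapped (limma adjusted p = 0.551), and passed upward without siELF5 replicate 3 (0.09, adjusted p = 0.0165).

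HNRNPK, a KH-domain protein that binds C-rich RNA and DNA and carries a 3' UTR motif shown above, had 64772, 64031 and 61119 counts in siELF5, against 67568, 67580 and 65876 in siNC. The groups did not overlap and siELF5 was at 94.5% of siNC (log2 fold change -0.08, SE 0.03, limma adjusted p = 0.0371), a call lost without siELF5 replicate 2, siELF5 replicate 3, siNC replicate 1 or siNC replicate 2 (adjusted p up to 0.143). HNRNPC, which packages U-rich stretches of nascent RNA as a tetramer, was at 95.4% of siNC, below every siNC library, and missed the threshold (limma adjusted p = 0.0798). Of the 50-base windows of HNRNPK and HNRNPC, 13.3% and 10.9% occur in other genes, led by HNRNPKP4 and HNRNPCP2, so both counts are uncertain. Of the 10 hnRNP calls, 7 held on leaving out each library in turn, those for HNRNPH1, HNRNPF, HNRNPM, HNRNPL, HNRNPH3, HNRNPA1L2 and HNRNPA3. Of these, HNRNPM, HNRNPL, HNRNPA1L2 and HNRNPA3 have over 10% of their 50-base windows in other genes. Without siELF5 replicate 3 the number of hnRNP genes that rose was 4, against 1 with all libraries, HNRNPA0, HNRNPD and HNRNPU being the others, where 22.7% of all genes were higher.

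The scaffold-attachment gene HNRNPU and its relatives did not pass the main test. The siELF5 libraries of HNRNPU lay on both sides of its siNC libraries, with replicate 3 below and the others above. HNRNPU had 78521 ± 3595 counts in siELF5 and 76357 ± 833 in siNC (SD, n = 3 each), with a limma adjusted p of 0.364, and it passed upward without siELF5 replicate 3 (0.08, adjusted p = 0.0189). HNRNPUL1 was at 103% of siNC, HNRNPUL2 at 102.2% and HNRNPR, a relative of SYNCRIP, at 97.9%, all with overlapping groups. HNRNPUL2 shares 45.7% of its exon length with the readthrough gene HNRNPUL2-BSCL2, which is itself listed at 0 in all 6 libraries.

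HNRNPCL1, HNRNPCL3 and HNRNPCL4, near copies of HNRNPC in a cluster, are likewise listed at 0 in all 6 libraries. HNRNPCL2 had 172 ± 28.2 counts in siELF5 and 144 ± 12.4 in siNC (SD, n = 3 each), with overlapping groups (limma adjusted p = 0.218), and 53.9% of its 50-base windows occur in other genes. Of the 50-base windows of HNRNPCL1, HNRNPCL3 and HNRNPCL4, 58.7%, 80.2% and 94.0% occur in other genes, so their values are uncertain as well. With members above 10% shared windows left out, 2 of 8 SR genes fell, and 5 of 12 hnRNP genes fell and 0 rose. Beside these, 23.3% of all tested genes were lower and 23.8% higher, and 33.2% and 25.1% of those with a mean of at least 1000.

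Level per kilobase of coding transcript spanned more among hnRNP than among SR genes. HNRNPA2B1 stood at 42372 in siELF5 and 42971 in siNC, followed by HNRNPK at 21519 in siELF5 and 22776 in siNC. Next came HNRNPF with 16307 in siELF5 and 17758 in siNC, and HNRNPAB with 12759 in siELF5 and 13541 in siNC. HNRNPC stood at 12205 in siELF5 and 12788 in siNC, and HNRNPU at 11450 in siELF5 and 11134 in siNC. HNRNPLL was at 720 in siELF5 and 676 in siNC on this scale. The order of the upper genes in this list was the same in both groups.

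Summed over each family, the SR genes gave 182316 ± 1557 normalised counts in siELF5 and 188329 ± 2710 in siNC, and the hnRNP genes 679754 ± 19054 in siELF5 and 698872 ± 9816 in siNC (SD, n = 3 each). The SR sum of siELF5 was 96.8% of that of siNC, and the hnRNP sum 97.3%. As a share of all counts, SR genes took 0.243% in siELF5 and 0.245% in siNC, and hnRNP genes took 0.906% in siELF5 and 0.911% in siNC. The balance between the families, the SR sum over the hnRNP sum, was 0.265, 0.265 and 0.275 in siELF5, against 0.27, 0.269 and 0.27 in siNC. The siELF5 ratios lay on both sides of the siNC ratios, with replicate 3 above and the other two below. That library also had the lowest siELF5 value for 19 of the 22 tested hnRNP genes and for 6 of the 11 SR genes.

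In the whole table the median change rose only toward the GC-rich end, and transcript GC content differs between these genes and others. From class 1 to class 7 of 10, by rising GC content, the median log2 fold change lay between -0.054 and -0.024. Median GC content was 40.7% for the tested SR genes and 42.6% for the tested hnRNP genes, against 48.6% over the tested genes with a value. The middle range of the members (25th to 75th percentile) lay between 39.3% and 45.04%, and the 3595 genes in that range had a median log2 fold change of -0.05, with 28.5% lower and 16.2% higher in siELF5. In the top GC class of 10 the median was 0.42, and no tested member lay in that class or the next one down. A library GC score, the median deviation of those GC-rich genes minus that of the fifth of 10 classes, was 0.22 to 0.28 in siELF5 and -0.40 to -0.07 in siNC.

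**Figure D4:**
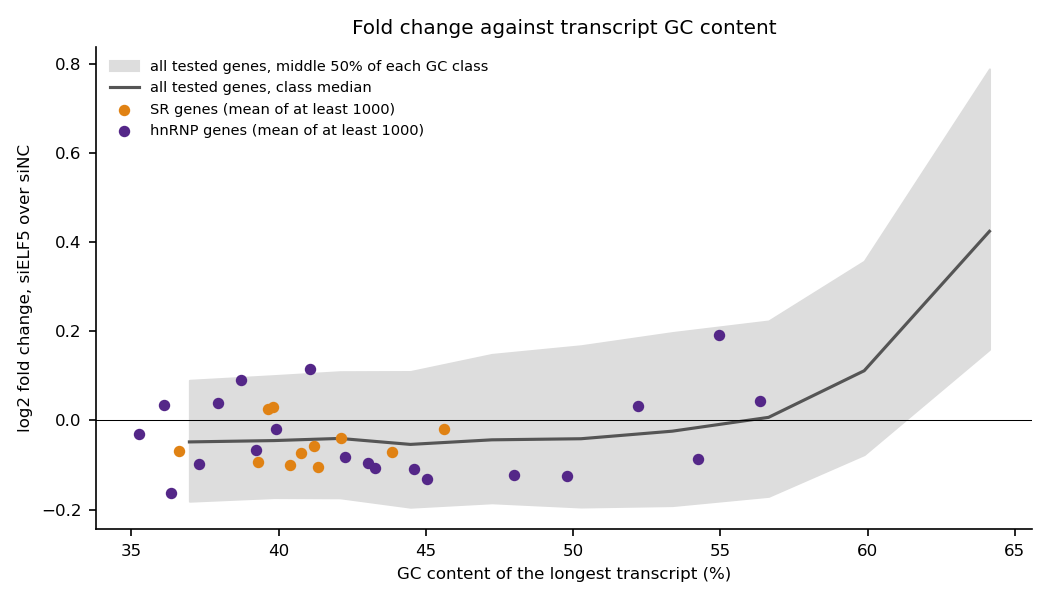
Log2 fold change of siELF5 over siNC (y axis) against GC content of the longest transcript in percent (x axis). The line joins the medians of 10 GC classes of all tested genes and the band runs from the 25th to the 75th percentile of each class; points are SR (orange) and hnRNP (purple) genes with a mean of at least 1000, which lie at 35.3% to 56.3% GC, below the classes where the line climbs to 0.42.

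After a per-library correction for GC content 6 of the 10 hnRNP calls and 0 of the 2 SR calls held. In that fit HNRNPH1 (-0.12), HNRNPF (-0.11), HNRNPL (-0.11), HNRNPAB (-0.12), HNRNPA1L2 (-0.08) and HNRNPM (0.15) passed, and HNRNPA0 (0.15), HNRNPLL (0.12) and HNRNPU (0.07) passed upward as well. With it 50.1% of the 14941 genes were called, 21.5% higher and 28.6% lower. The GC scores of the groups did not overlap, so score and knockdown cannot be told apart. A call lost with the score as a covariate, here or in the lists below, therefore decides nothing. With that covariate 0 members passed, where 7.10% of all genes did (limma). At an unadjusted p under 0.05, 1 of 22 hnRNP genes was lower, beside 1811 lower and 1474 higher of all 16032 genes. The median standard error was 0.082 for hnRNP and 0.088 for SR genes, against 0.033 and 0.037 without it. In that fit HNRNPH1 was at -0.05, HNRNPF at -0.08 and HNRNPM at 0.14.

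The authors' deposited table called 2 SR genes lower and 0 higher, and 9 hnRNP genes lower and 2 higher, at an adjusted p under 0.05, where 41.1% of all genes with an adjusted p were called, 20.6% higher and 20.5% lower. The authors' deposited log2 fold changes were -0.16 for HNRNPH1 and 0.19 for HNRNPM.

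In the other lists of splicing genes most of the calls were also lower in siELF5, beside 23.3% lower and 23.8% higher over all genes tested. After the GC correction 28.6% of all genes were lower and 21.5% higher, and with the GC score 3.97% and 3.12%. At an unadjusted p under 0.05 with the GC score, 1811 of all 16032 genes were lower and 1474 higher. Of 28 tri-snRNP and catalytic genes of the spliceosome, 17 were lower and 1 higher, and their median was -0.12 on the log2 scale. Once the GC score entered the fit, 0 of these 28 passed, and 1 was lower at an unadjusted p under 0.05 (limma). PRPF3, a protein of the U4/U6 particle, had 5616 ± 317 counts in siELF5 and 7146 ± 205 in siNC (SD, n = 3 each), a log2 fold change of -0.35, and DDX23, the kinase-regulated helicase of U5, fell by 0.30. TXNL4A, the small thioredoxin-like protein of U5, rose by 0.15. Of 25 genes of U1, U2 and the Sm ring, 11 fell and 3 rose (median -0.08). After the GC correction 13 of them were lower and 1 higher, and with the GC score 0 passed by limma, 1 being lower at an unadjusted p under 0.05. SF3B1, the branch-site protein mutated in several cancers, fell by 0.14, and SNRPD2 by 0.16. The GC-rich genes SNRNP70 (63.7% GC) and SF3A2 (66.6%) rose by 0.37 and 0.45, and after the GC correction stood at -0.05 and -0.24. The top GC class of 10 had a median of -0.07 after that correction, and its part in these values was not tested. The count of SF3A2 is uncertain, since 18.4% of its 50-base windows occur in other genes, mainly PLEKHJ1.

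Proteins that act on SR and hnRNP proteins were followed as well, beside the same 23.3% lower and 23.8% higher over all genes tested. At an unadjusted p under 0.05, 4245 of all 16032 genes were lower and 4335 higher in the main fit. With the GC score these numbers were 1811 and 1474. The 3 importers all fell: TNPO2 by 0.58, TNPO1, the carrier of M9-type hnRNP cargo, by 0.26, and TNPO3, the carrier of phosphorylated SR proteins, by 0.23. TNPO2 had 6215 ± 353 counts in siELF5 and 9254 ± 92.5 in siNC (SD, n = 3 each), and it also passed once the GC score entered the fit (limma adjusted p = 0.0018), whereas TNPO1 (adjusted p = 0.124) and TNPO3 (adjusted p = 0.149) did not. Of 10 kinases and partners 2 fell and 0 rose (limma; 0 higher at an unadjusted p under 0.05): DYRK1A by 0.16 and PPP1R8, a nuclear inhibitor of protein phosphatase 1, by 0.20. SRPK1, SRPK2 and CLK1 to CLK4 were not called. In the GC-corrected fit 2 of these 10 were higher, SRPK2 (0.12, limma adjusted p = 0.023) and CLK1 (0.12, adjusted p = 0.0103), and 2 lower, and with the GC score 0 passed, also at an unadjusted p under 0.05. Of 15 genes of nonsense-mediated decay and the exon junction complex 7 fell and 0 rose (0 higher also at an unadjusted p under 0.05, limma), SMG6 by 0.39 and RBM8A by 0.19. That is 46.7% called, against 47.1% of all genes. Of the 50-base windows of SMG6 and RBM8A, 29.6% and 20.5% occur in other genes, mainly HIC1 and GNRHR2, so both counts are uncertain. With the GC score 0 of these 15 passed by limma (1 higher and 2 lower at an unadjusted p under 0.05), and their median was 0.011.

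Related RNA-binding proteins moved both ways. Over all genes tested 23.3% were lower and 23.8% higher, and over those with a mean of at least 1000, 33.2% and 25.1%. With the GC score, 1811 of all 16032 genes were lower and 1474 higher at an unadjusted p under 0.05. Of 23 hnRNP-type genes under other symbols 9 fell and 3 rose (median -0.06), and with the GC score 3 were lower and 0 higher (limma; 2 higher at an unadjusted p under 0.05). FUBP3 fell by 0.31, while PTBP3, a paralog of the polypyrimidine tract binding protein, rose by 0.18 and KHSRP by 0.17, at 0.03 after the GC correction. Of 26 SR-related genes 8 fell and 4 rose (median -0.06), with BCLAF1 lower by 0.18 and ACIN1 by 0.16. For BCLAF1 25.4% and for ACIN1 12.1% of the 50-base windows occur in other genes, so both counts are uncertain. With the GC score 0 of these 26 passed by limma, 1 being higher and 2 lower at an unadjusted p under 0.05. LUC7L2 was higher by 1.2 (0.14 once the GC score entered the fit), and 48.6% of its 50-base windows are shared with a readthrough gene. SCAF1 (68.5% GC) was higher by 0.41 and stood at -0.51 after the GC correction. SRRM3 (68.0% GC), not called in the main test, went from -0.09 to -0.95 with it. The top GC class of 10 had a median of -0.07 after that correction, and its part in these values was not tested.

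MBNL1, a muscleblind protein that sets developmental splicing patterns, had the smallest adjusted p of the other splicing regulators. It had 17020 ± 418 counts in siELF5 and 9322 ± 384 in siNC (SD, n = 3 each), a log2 fold change of 0.87 (SE 0.037), and passed with both GC adjustments. Of its 50-base windows 15.4% are also found in the antisense gene MBNL1-AS1. QKI rose by 0.24, RBM20 fell by 0.50 and RBM3, a cold-induced RNA-binding protein, fell by 0.31. In all 14 of these 25 regulators fell and 4 rose (23.3% and 23.8% over all genes tested), with a median of -0.12. With the GC score 1 was lower and 1 higher, and the median was -0.04.

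**Figure D5:**
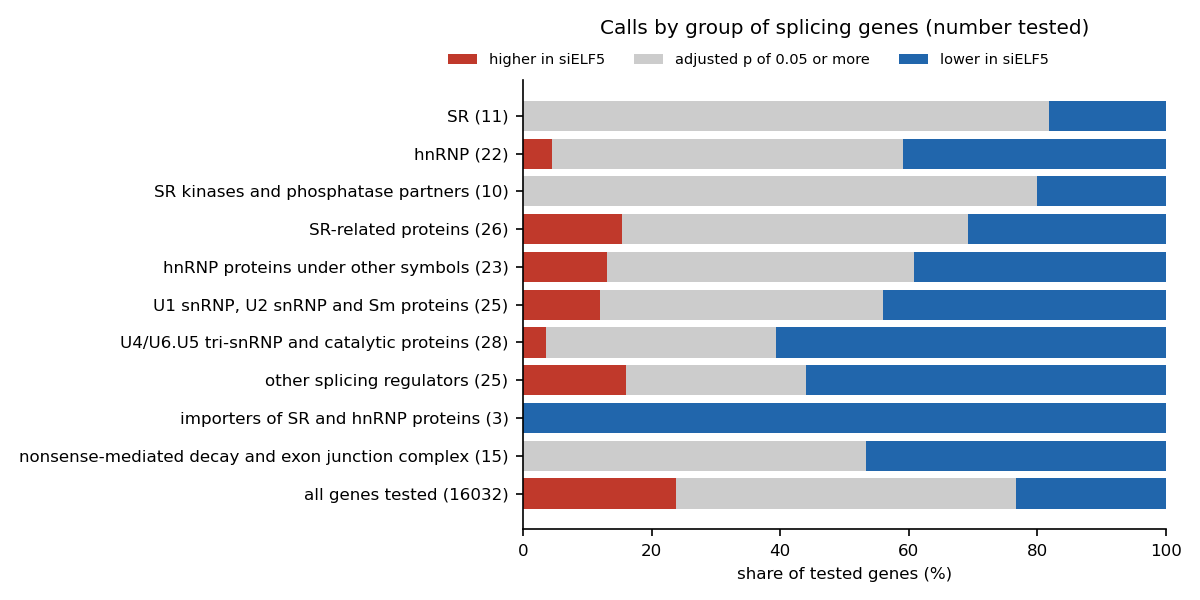
Share of tested genes in percent (x axis) that were higher in siELF5 (red), not past the threshold (grey) or lower (blue) for SR genes, hnRNP genes, 8 other lists of splicing genes and all genes tested (y axis, number tested in brackets). SR genes have 2 of 11 lower, hnRNP genes 9 of 22 lower and 1 higher, and the tri-snRNP list 17 of 28 lower.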

How the data were processed

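Libraries were prepared from total RNA with TruSeq RNA v2, a kit that does not mark strand. Build hg19 and STAR 2.6, Subread, featureCounts 1.6.3 and DESeq2 1.22.1 are named in the submitters' processing notes, without roles; counting options were not given in the sources. The deposited per-library values are signal values (called normalised read counts), gene counts divided by 1 size factor per library: 100% of values were whole multiples of the column's smallest value, within 1e-06. The authors' own comparison, per the file headers, gives log2 fold changes with a test score, a p-value and its adjusted form, and entered no test.

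The main test was limma 3.58.1 (R 4.3.3, two-sided, with a mean-variance trend), applied to log2(value + 1). It covered the 16032 genes whose mean reached 10, and this scale understates the change of low genes. edgeR 4.0.16 and DESeq2 1.42.0 were run on the recovered reads. The limma step was tested on simulated data. GC content came from the longest GENCODE 29 transcript (93.2% of tested genes), and genes without a value were left out of the per-library loess correction (span 0.3). Replicates of a group differed by more than sampling noise (chi-square per degree of freedom 4.38 to 12). Members, gene lists and alternatives were chosen with earlier results of these data known, so no list is independent evidence. All members are named, with values in every library for up to 5 called members a direction in each family, and from other lists up to 2 called genes a direction, by smallest adjusted p. One gene that this rule names is not reported here. Further genes were chosen after their values were seen. Coordinates are from GRCh38, the reference, and none were converted.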

Additional observations from a re-analysis of the deposited data

How the results depend on the processing

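Replicate numbers did not pair the libraries (deviations of same-numbered libraries correlated at 0.015, -0.035 and -0.056, and not every library correlated best with its own number). With the replicate number as a block 7174 genes were called, against 7559 without it, with 2 SR genes lower (SRSF3 and SRSF7), 10 hnRNP genes lower and 1 higher.

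Of the 19 alternatives, most moved a count of called members. SR genes lower numbered 1 with no filter on low values (17.0% of all genes lower) or with quantile scaling (24.9%). They numbered 0 with equal column totals (19.5%), no trend (19.5%), the GC correction (28.6%, and 27.8% with the replicate block) or the library GC score (3.97%). Quantile scaling called 1 SR gene higher (21.6% of all genes higher). The hnRNP genes higher numbered 4 with quantile scaling and with either GC correction (21.5% of all genes, and 20.9% with the block), 3 with equal totals (27.3%), 2 with DESeq2 (20.2%) and 0 with the GC score (3.12%). The hnRNP genes lower numbered 7 with no filter on low values, 6 with quantile scaling or equal totals, and 5 with no trend or the GC correction. They numbered 4 with that correction and the block and 0 with the GC score, where 1138 genes were called in all. The SR median was -0.024 with quantile scaling and with either GC correction, -0.036 with equal totals and 0.051 with the GC score, on the other side of 0. The hnRNP median was -0.0011 with quantile scaling and -0.017 with equal totals. Leaving out 1 library gave 0 to 3 SR genes and 6 to 9 hnRNP genes lower, where 18.4% to 22.5% of all genes were lower. In these fits 1 to 4 hnRNP genes were higher (19.6% to 23.3% of all genes), and the SR median was -0.078 to -0.044. The cause of these shifts was not tested. Low counts limit SRSF12, HNRNPH2 and HNRNPCL2. For single members, 519 results kept their direction and side of the threshold, 60 lost it, 19 gained it and 28 turned sign, of which HNRNPA2B1 with quantile scaling (0.11) was called and SRSF5 with the GC score (0.051) had been called in the main test. The others were called in neither fit. With the GC score SRSF7 (0.10), SRSF8 (0.11), SRSF11 (0.078), HNRNPA2B1 (0.081), HNRNPC (0.033), HNRNPR (0.023), HNRNPA0 (-0.023), HNRNPUL1 (-0.078) and HNRNPH2 (-0.28) turned. With either GC correction SRSF2 (0.027), SRSF9 (0.0041), HNRNPA2B1 (0.0088), HNRNPR (0.025) and HNRNPUL1 (-0.0086) did. With equal totals SRSF2 (0.014), HNRNPA2B1 (0.011) and HNRNPR (0.0010) did, and with quantile scaling SRSF2 (0.025) and HNRNPC (0.0077). On leaving out 1 library HNRNPA2B1 ranged from -0.037 to 0.0021, above 0 without siELF5 replicate 3 or siNC replicate 1.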
